A study of Mus musculus with 5 samples.

Results

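The 9 genes described here encode the activators of the circadian clock and the factors that read or oppose its output: Arntl, Clock and Npas2, the DEC genes Bhlhe40 and Bhlhe41, the PAR bZIP genes Dbp, Tef and Hlf, and Nfil3. They were chosen by name from the 21887 nuclear protein-coding genes of the RefSeq annotation, and their rows were taken from the authors' HOMER tables of an Nr1d1 ChIP-seq study in mouse Th1 cells. Nr1d1 (REV-ERBα) is a nuclear receptor of the clock that represses transcription. The cells came from wild-type C57BL/6 mice aged 4 to 6 weeks: naive CD4 T cells were cultured with antibodies against CD3, CD28 and IL-4 and with IL-12 and IFNγ, and were taken after 3 to 4 days. By their titles the 5 libraries were 3 Nr1d1 ChIP libraries, 1 IgG mock pull-down and 1 input, all from the same wild-type cells, although each of the 5, mock and input included, carries the Nr1d1 antibody as its label. The authors' lists held 19586 ChIP peaks and 17111 IgG peaks, both over the input, and 14471 ChIP peaks that overlapped no IgG peak, called ChIP-specific here. No list had a value for a single library, so peaks carry no replicate error, depth was unknown, and every comparison below is a description. Expression was not measured, so the Th1 label could not be checked against marker genes.

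In the clock of mammals, BMAL1 (from Arntl) pairs with CLOCK, or with its paralogue NPAS2, binds E-box sequences and activates the period, cryptochrome, Nr1d1, Dbp and DEC genes. DEC1 (from Bhlhe40) and DEC2 (from Bhlhe41) occupy the same E-boxes and repress. DBP, TEF and HLF activate genes through D-box sequences, and NFIL3 (E4BP4) represses through the same sites. Nr1d1 closes a loop on this system: it binds the RORE, an AGGTCA hexamer with an A/T-rich flank, and in liver and cultured cells it represses Arntl, Clock, Npas2 and Nfil3. In T cells Bhlhe40 is known as a factor required for cytokine production by helper cells, and Nfil3 as a factor for NK cell development and a restraint on the Th17 programme.

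The table of RefSeq promoter windows gave the sequence under most of a ChIP-specific peak at Clock, while that under the peaks of the other genes was not read. RefSeq promoter windows run from 250 bases before a start of transcription to 50 bases from it onwards, and 8 of the 9 genes had at least 1 window, 12 in all. The first sequence is the 250 bases before the start of the most upstream Clock window (chr5:76304793-76305042, minus strand, GRCm38.p6), in capitals where the peak covered it. The others are 30-base stretches around the motif matches found in the windows, shown because none of them lay under a peak, with the match in capitals. TGACCT is the AGGTCA hexamer read on the opposite strand. The sequences are RefSeq's.
Clock, before the first window start: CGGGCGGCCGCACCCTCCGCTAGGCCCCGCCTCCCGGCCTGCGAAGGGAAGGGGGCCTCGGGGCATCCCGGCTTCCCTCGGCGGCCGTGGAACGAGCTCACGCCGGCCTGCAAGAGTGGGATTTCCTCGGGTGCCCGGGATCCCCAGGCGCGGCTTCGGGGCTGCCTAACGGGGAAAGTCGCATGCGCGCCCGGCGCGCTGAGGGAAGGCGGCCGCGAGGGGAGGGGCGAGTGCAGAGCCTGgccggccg
Arntl, RORE: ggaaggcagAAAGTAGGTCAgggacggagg
Nfil3, hexamer: ggcgctcggaacTGACCTactaacacacat
Clock, hexamer: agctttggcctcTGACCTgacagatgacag
Bhlhe41, E-box: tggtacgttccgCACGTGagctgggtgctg
Tef, first E-box: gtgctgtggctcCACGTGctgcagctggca
Tef, second E-box: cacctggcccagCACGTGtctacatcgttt

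By the authors' assignment to the nearest start, 1 of the 9 genes had a ChIP-specific peak, and that gene was Bhlhe40. Over all protein-coding genes the share was 17.5%, and 1 of 9 is 11.1% (exact Clopper-Pearson 95% interval 0.281 to 48.2, for counting error only). With all ChIP peaks, 2 genes were assigned one, Bhlhe40 and Hlf, against 22.0% of all genes. In the IgG list 2 genes were assigned a peak, Arntl and Hlf, against 17.0% of all genes. The members' shares were thus near the background in all 3 lists. Clock, Npas2, Bhlhe41, Dbp, Tef and Nfil3, 6 of the 9, were assigned no peak in either list. The share of all genes with no peak in both lists was not counted. With 22.0% assigned a ChIP peak and 17.0% an IgG peak, most genes had none either.

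When position was used in place of the assigned name, Clock joined Bhlhe40. A ChIP-specific peak overlapped the gene body, or the 5 kb around it, at these 2 genes, against 16.8% of all genes. By the same rule 1 gene, Arntl, had an IgG peak, against 15.9% of all genes. Longer genes met this rule more often. For ChIP-specific peaks it held for 7.48% of genes up to 10 kb, 15.2% of those from 10 to 100 kb and 55.2% of longer ones. For IgG peaks the shares were 7.91%, 13.5% and 53.0%. Bhlhe40, at 6297 bp, is in the shortest class with Bhlhe41 and Dbp. Arntl and Npas2 are in the longest, and neither held a ChIP-specific peak.

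**Figure D1:**
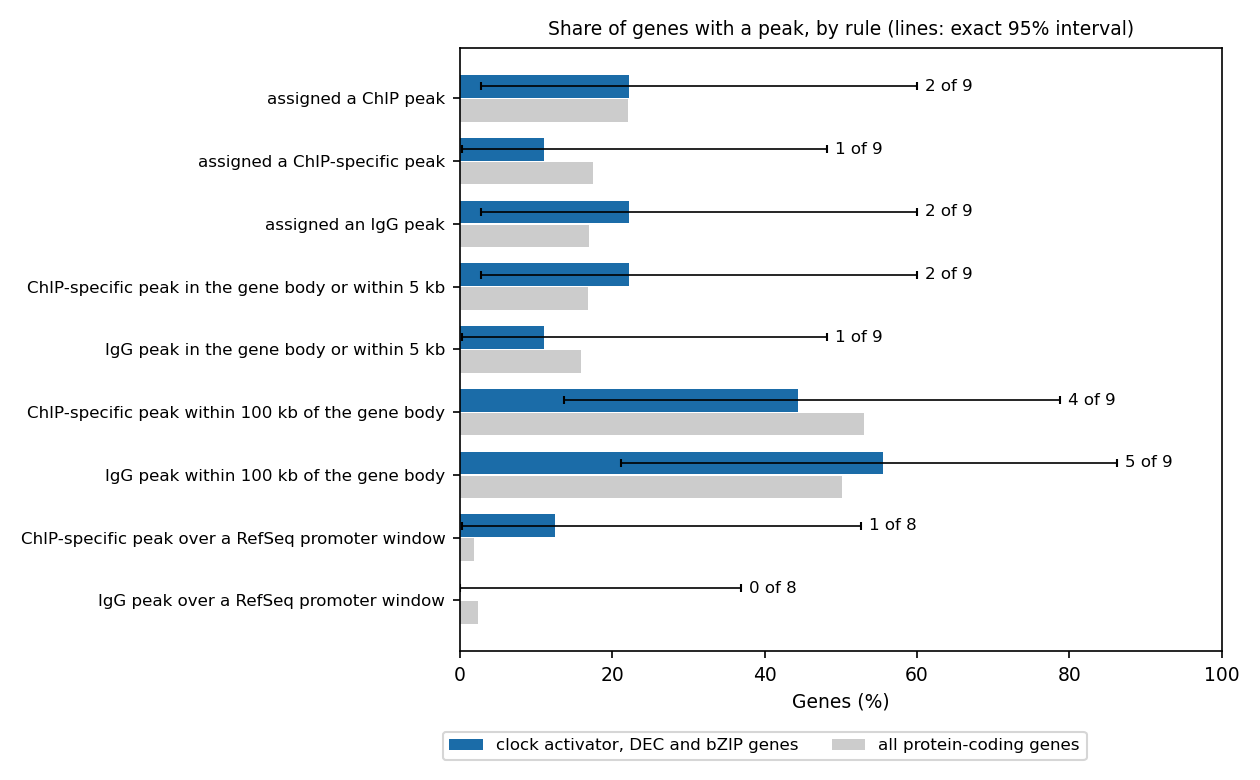
Share of genes (%) with a peak under 9 rules, for the clock activator, DEC and bZIP genes (blue, with the exact 95% interval as a line and the count beside it) and for all protein-coding genes (grey). The blue shares rest on 0 to 5 genes. The genes were chosen by name, so the lines show counting error only and are no test against the grey bars. With so few genes they are wide under each rule.

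Among the activators, Clock had the peak nearest to the start of a window. The peak ran from 76304801 to 76305074 on chromosome 5 (mm10), was deposited with a length of 275 bp and an FDR of 0.0261, and overlapped no base of an IgG peak. The authors' table placed it in the promoter of Gm7467, a lncRNA gene of 652 bp (chromosome 5, 76304876 to 76305527), with its centre 61 bp downstream of that gene's start. Clock is transcribed from the opposite strand, and its most upstream RefSeq promoter window has its start at 76304792, 84 bp from the start of Gm7467. Relative to that start, the peak began 9 bp upstream, ended 282 bp upstream and had its centre 145 bp upstream. Of the bases of the peak, 199 lay over the body of Gm7467 and 75 before it, and the authors' table gave the peak to the lncRNA. The RefSeq body of Clock reaches further upstream than that window start, to 76305603. The whole peak, and Gm7467 itself, thus lay inside the annotated gene, and the peak was 529 bp from its 5′ end. The other 2 Clock windows, with starts at 76304548 and 76303502, were not touched by the peak.

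Of the 274 bases from the first to the last coordinate of the peak, 242 (88.3%) lay in the Clock window, and those are the capitals printed above. They held no match to the 6 motifs searched on both strands: the hexamer AGGTCA, the RORE, RevDR2 (AGGTCANNAGGTCA), the E-box CACGTG, the E'-box CACGTT and the D-box TTATGTAA or TTACGTAA. This says only that these letters are absent from the part of the peak that could be read. The part was 75.6% G and C with 31 CpG dinucleotides. Base composition moved with peaks of both kinds: the median window had 52.7% G and C, a window under a ChIP-specific peak 69.0% and one under an IgG peak 70.7%. Of windows with 70 to 80% G and C, 5.24% lay under a ChIP-specific and 8.02% under an IgG peak, and of windows under 50%, 0.310% and 0.356%. The part of composition in the Clock peak was not tested.

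Over all protein-coding genes with a promoter window, 1.85% had a ChIP-specific peak over a window, and among the 8 members with one this was Clock alone. An IgG peak lay over a window in 2.41% of all genes and in 0 of the 8 members. The windows of the members were themselves rich in G and C, with a median of 65.7% over 12 windows.

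**Figure D2:**
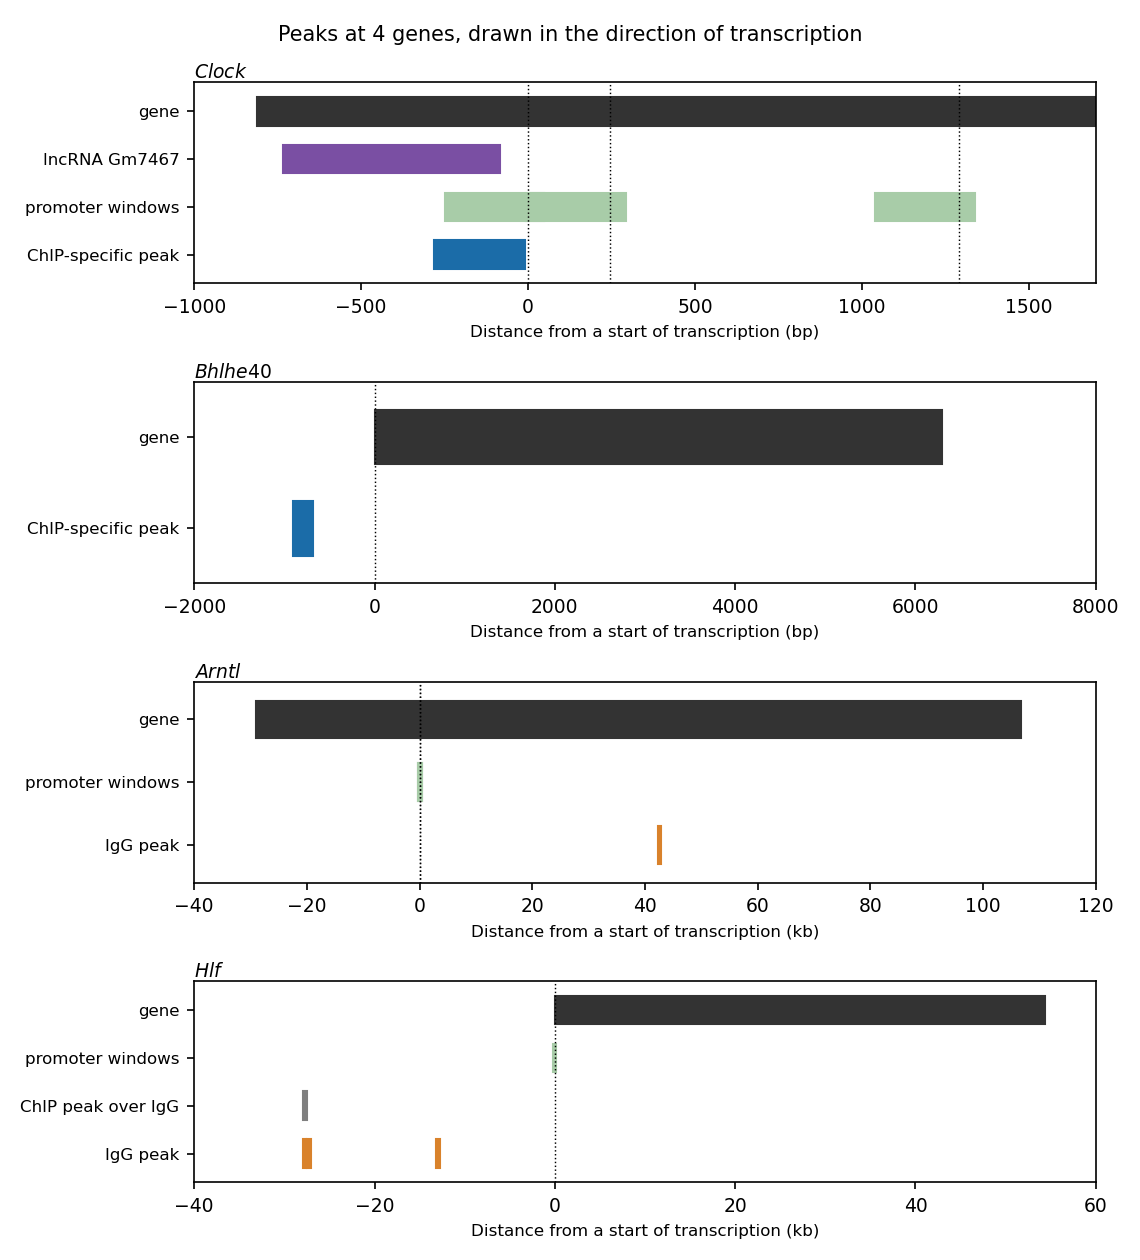
Peaks around Clock, Bhlhe40, Arntl and Hlf, with the distance from a start of transcription on the x axis (bp for Clock and Bhlhe40, kb for Arntl and Hlf) and the gene drawn in the direction of transcription. Dotted lines are annotated starts. Peaks and windows that would be too thin to see are widened in the Arntl and Hlf panels, where the 2 farther IgG peaks of Hlf appear as 1 bar. The ChIP-specific peak of Clock lies inside the gene and ends 9 bp before the start of its most upstream window, which is the zero of that panel. That of Bhlhe40 lies 792 bp before its start by the centre. Within the stretch drawn, Arntl has an IgG peak and no ChIP peak, and the ChIP peak of Hlf sits over an IgG peak.

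Arntl, the gene of BMAL1 and a textbook target of Nr1d1, had no ChIP peak in the gene or within 5 kb of it. Its nearest ChIP peak was ChIP-specific, 56.3 kb from the gene body, intergenic and assigned to Gm23662 (chromosome 7, 113122026 to 113122199, 175 bp, FDR 0.0106). A ChIP-specific peak lay nearer in 39.5% of protein-coding genes. The IgG mock had an intronic peak inside Arntl, 42322 bp downstream of the start (113249726 to 113249849, 125 bp, FDR 0.00758). In that list 48.1% of peaks had a lower FDR and 79.2% were longer. Of genes over 100 kb, the class of Arntl, 53.0% had an IgG peak in the body or within 5 kb.

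Arntl was also the member with a RORE in a promoter window. The match lay on the strand of the gene at 113207537 to 113207547, its first base 26 bp after the start at 113207511, and contained the hexamer. A RORE was found in 126 of 32851 windows (0.384%) and in 124 of 27025 genes (0.459%). No peak of any list covered the match: the nearest ChIP peak was 85.3 kb away and the nearest IgG peak 42.2 kb away. Among all 126 windows with a RORE, 2 (1.59%) lay under a ChIP-specific peak, against 1.27% of all windows, and 1 (0.794%) under an IgG peak, against 1.75%.

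Npas2, the paralogue of Clock, stood clear of both lists despite a length of 169539 bp. Its nearest ChIP peak, which was ChIP-specific, was 136 kb from the gene body and assigned to Tbc1d8 (chromosome 1, 39498926 to 39499224, 300 bp, FDR 0.00683). Its nearest IgG peak was 458 kb away, farther than in 88.9% of protein-coding genes. No motif matched in its 1 window.

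The DEC pair differed in position. Bhlhe40 had a ChIP-specific promoter peak at chromosome 6, 108659726 to 108659949 (225 bp, FDR 0.0183), centred 792 bp upstream of its start and 680 bp from the gene body at its nearer end. No other peak of any list lay within 100 kb of Bhlhe40, and the nearest IgG peak was 168 kb away in an intron of Edem1. Bhlhe41 had no ChIP-specific peak within 175 kb. Its nearest ChIP peak, 67.2 kb away in an intron of Sspn (145932651 to 145933199, 550 bp, FDR printed as 0), stood over an IgG peak of 500 bp with an FDR printed as 0 at the same site. The single window of Bhlhe41 held an E-box 153 bp before the start, under no peak. An E-box was found in 7.15% of windows. The sequence under the Bhlhe40 peak was not analysed here.

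Neither of the promoter peaks stood out by its FDR. Of the ChIP-specific peaks annotated to a promoter, 799 in all whose FDR had a median of 0.0131 and whose length had one of 200 bp, 66.0% had a lower FDR than the Bhlhe40 peak and 81.5% a lower FDR than the peak at Clock. Both were longer than the median: 28.3% of all ChIP-specific peaks were longer than the Bhlhe40 peak and 12.2% longer than the one at Clock. The FDR is the authors' own value per peak, and all deposited values lay under 0.05.

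**Figure D3:**
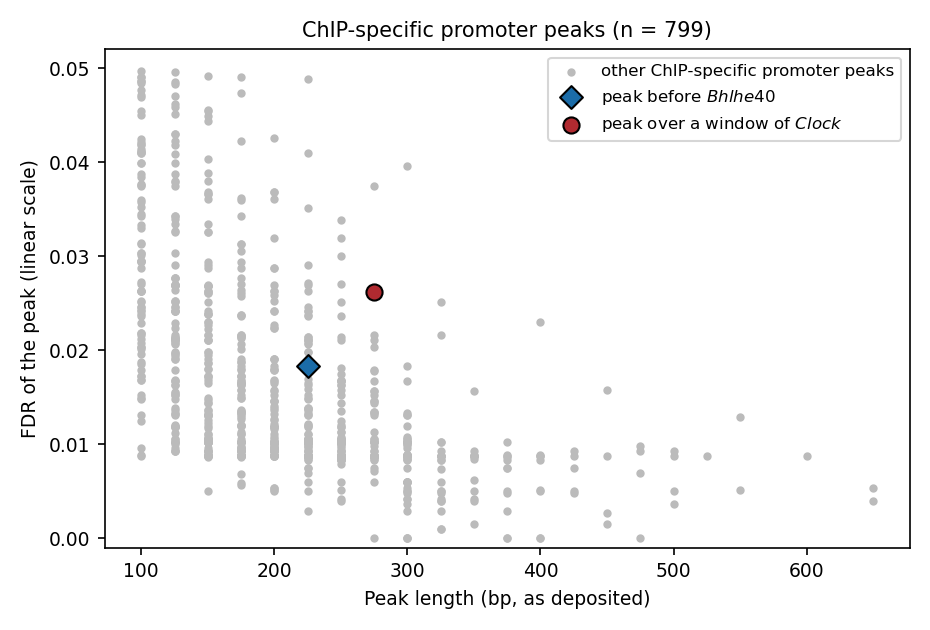
FDR against deposited length (bp) for the 799 ChIP-specific promoter peaks, on linear axes, with the peaks at Bhlhe40 (diamond, FDR 0.0183, 225 bp) and Clock (red circle, FDR 0.0261, 275 bp) marked. Both lie above the median FDR of 0.0131 and right of the median length of 200 bp.

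Of the PAR bZIP genes, Hlf was the one with assigned peaks, and none of them was ChIP-specific. Its ChIP peak was intergenic, 27792 bp upstream of the start (chromosome 11, 90418526 to 90418849, 325 bp, FDR 0.00541). In the ChIP list 16.2% of peaks had a lower FDR. All 324 bases of it lay inside an IgG peak (90418526 to 90418874, 350 bp, FDR printed as 0). A further IgG peak, of 250 bp with an FDR of 0.00948, ended at 90418399, just below it, and another of 150 bp lay 13130 bp upstream of the start (90403951 to 90404099, FDR 0.0185). The mock pull-down thus gave 3 peaks before Hlf and the Nr1d1 pull-down 1, at a site the mock shared. The nearest ChIP-specific peak was 95.9 kb away in an intron of Gm11511.

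Dbp, a strongly rhythmic direct target of CLOCK and BMAL1, and Tef were assigned none. For Dbp the nearest ChIP and IgG peaks had the same limits, 81.2 kb away at the promoter of Izumo1 (chromosome 7, 45623576 to 45623949, 375 bp), with an FDR printed as 0 in both lists, and the nearest ChIP-specific peak was 146 kb away. For Tef the nearest ChIP peak was 383 kb away in an intron of Shisa8 and the nearest IgG peak 217 kb away. Tef had 2 windows, each with an E-box, 127 and 138 bp before their starts and under no peak. The windows of Dbp and Hlf held no match to the 6 motifs.

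Nfil3, the repressor at D-boxes, was the member farthest from a ChIP peak. The nearest one was 441 kb away (chromosome 13, 53424201 to 53424299, 100 bp, FDR 0.0152, assigned to Sptlc1). A ChIP peak lay nearer in 95.8% of protein-coding genes. The nearest IgG peak, in an intron of Ror2, was 294 kb away. Its window held the hexamer 12 bp before the start on the opposite strand, and its flank did not meet the RORE consensus. The hexamer alone was found in 16.3% of windows and in 18.1% of genes with a window. Among the 8 members with a window it was found in 3, Arntl, Clock and Nfil3. The Clock hexamer belongs to the most downstream of its windows and lay 1180 bp from the peak.

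**Figure D4:**
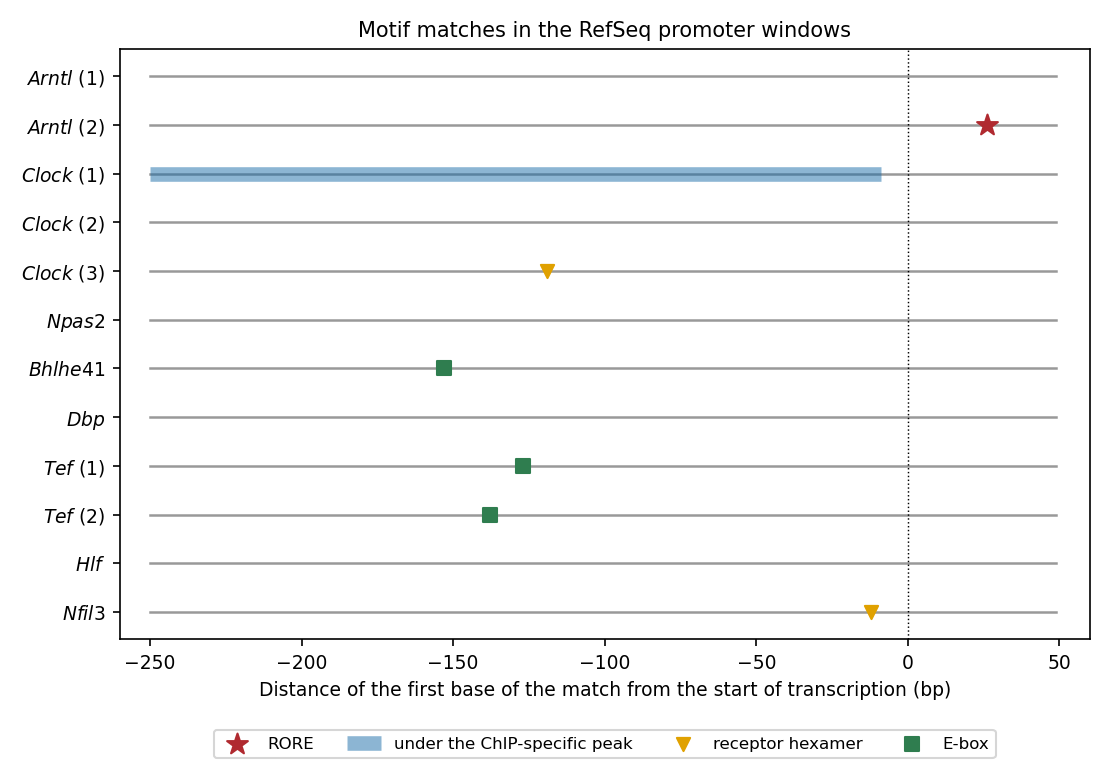
Motif matches in the 12 RefSeq promoter windows of 8 genes, by distance of the first base from the start of transcription (bp). Windows of 1 gene are numbered in the direction of transcription, and the hexamer inside the Arntl RORE is not drawn apart. The blue band is the part of the first Clock window under the ChIP-specific peak, and no marker falls on it.

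As a group the genes lay no nearer to ChIP-specific peaks than other genes. The median gap from gene body to the nearest ChIP-specific peak was 136 kb over the 9 genes and 89.7 kb over all protein-coding genes, and 6 of the 9 were farther than the latter. For all ChIP peaks the medians were 67.2 and 58.5 kb, and for IgG peaks 81.2 and 99.5 kb. Within 100 kb of the gene body, 4 of the 9 had a ChIP-specific peak (Arntl, Clock, Bhlhe40 and Hlf), against 53.0% of all genes. An IgG peak lay within that distance of 5 of the 9 (Arntl, Clock, Bhlhe41, Dbp and Hlf), against 50.1%. Npas2, Tef and Nfil3 had no ChIP or IgG peak within 100 kb. The share of all genes with neither kind of peak within that distance was not counted.

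**Figure D5:**
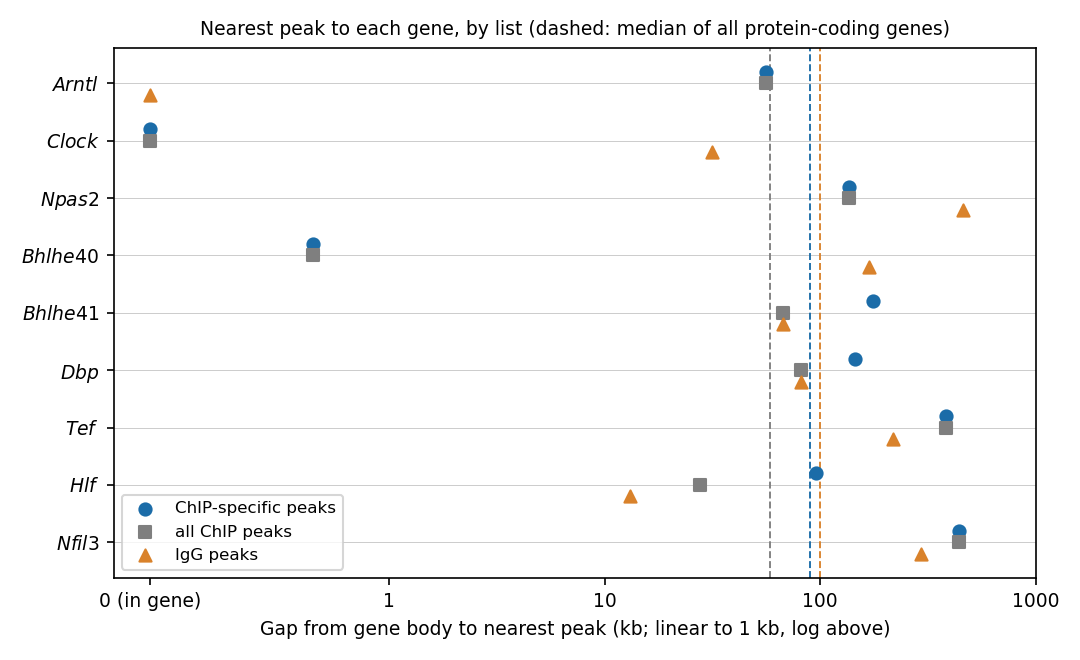
Gap in kb from the gene body to the nearest ChIP-specific, ChIP and IgG peak for each of the 9 genes (linear up to 1 kb, log above). Dashed lines are the medians over all protein-coding genes, at 89.7, 58.5 and 99.5 kb. Clock and Arntl have a peak inside the gene, of ChIP and of IgG respectively, and Bhlhe40 one at 0.680 kb, while the ChIP-specific peaks nearest to Tef and Nfil3 lie at 383 and 441 kb.

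Of 18 other genes of the clock, 4 (22.2%) were assigned a ChIP-specific peak, Cry1, Cry2, Rorb and Csnk1e, against 17.5% of all protein-coding genes. An IgG peak was assigned to 3 (16.7%), Nr1d1, Rora and Rorb, against 17.0%. Both counts were near the background. At Cry2, one of the cryptochromes that repress CLOCK and BMAL1, the peak was exonic, 124 bp downstream of the start (275 bp, FDR 0.0275), and overlapped a promoter window, as the peak at Clock did. No other gene of the 14 with a window had a ChIP-specific peak over one. Over all protein-coding genes with a window the share was 1.85%. At its paralogue Cry1 the peak was intergenic, at -6021 bp from the start, which is upstream of it (200 bp, FDR 0.00880). At Csnk1e, which encodes a casein kinase that phosphorylates period proteins, the peak was intronic, 1543 bp from the start (250 bp, FDR 0.00880). Rorb, a receptor that activates through the RORE, was assigned 5 ChIP-specific peaks and also 4 IgG peaks. The nearest ChIP-specific one was intronic and 6150 bp from the start (100 bp, FDR 0.0263). The share of all genes with several peaks was not counted. The IgG peak of Nr1d1 was annotated to a transcription termination site, 664 bp from the start (525 bp, FDR printed as 0). The nearest of 8 IgG peaks of Rora was intronic, at -5916 bp from the start (100 bp, FDR 0.0266). By position, 3 of the 18 (16.7%) had a ChIP-specific peak in the body or within 5 kb, against 16.8% of all genes. By the same rule 6 (33.3%) had an IgG peak, against 15.9%. IgG peaks that lay in or near a gene but carried the name of a neighbour were found at 4 of the 18. In the 18 genes no ChIP-specific peak inside a gene or within 5 kb of it carried a neighbour's name, as the one at Clock did. Shares of all genes were not counted for either kind of peak under this rule, so neither number can be judged. A RORE was found in 0 of the 14 genes with a window.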

How the data were processed

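Th1 chromatin was crosslinked with 1% formaldehyde for 30 minutes and sonicated before ChIP, per the labels' protocols. The submitters' processing notes name the build mm10 and the tools BWA and HOMER, without versions. Neither the program that called peaks nor how the 3 ChIP libraries were merged is given in the sources used here. Deposited by the authors were, per the file headers, a length in bp and an FDR per peak, used as a q-value and printed to 6 decimals. The score in the deposited HOMER tables was equal to the length for all 51163 annotated peaks of the 3 lists. The deposited length is 1 bp more than the span of the coordinates printed here, which follow the HOMER tables. All 14471 peaks of the list without overlap were ChIP peaks that shared no base with an IgG peak, and 2 of them, and 1 IgG peak, had no annotation.

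The 9 genes, the 18 other clock genes, the rules and the motifs were chosen with earlier results of these data known. All 9 genes were named, with neighbours whose peaks lie near them and other clock genes with an assigned peak at the promoter or within 10 kb of the start. The genes that carry the nearest peaks farther away, the gaps up to 100 kb and the G and C shares were added after values were seen. Older symbols were replaced by those of RefSeq's GRCm38.p6 annotation, which has the coordinates of mm10. Overlaps, gaps and motif matches were computed in Python 3.11.15 (numpy 2.4.6, pandas 2.3.3, scipy 1.17.1). Overlaps, gaps and the search for the hexamer and the E-box were tested on simulated data, and the other motifs were not. The RORE consensus was A or T, A, A or T, any base, T, A or G and then GGTCA. The promoter table is not complete, and shares refer to its windows. Mitochondrial genes were left out. No test was made, since no list has a value per library. Some items of the clock list are not reported here.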

Additional observations from a re-analysis of the deposited data

How the results depend on the processing

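The number of the 9 genes assigned a ChIP-specific peak was 1 (Bhlhe40). It was also 1, and the gene the same, when ChIP peaks within 1 kb of an IgG peak were left out, when only those covered by an IgG peak over at least 50% of their length were removed, and when peaks had to be within 100 kb of the start. With peaks of an FDR of 0.01 or less it was 0. The median FDR of the ChIP-specific peaks was 0.0146, so this limit removed most of the list. The number was 2, Clock and Bhlhe40, by overlap with the gene body extended by 5 kb and with peak centres within 50 kb of a start. It was 2, Bhlhe40 and Hlf, with all ChIP peaks. Shares of all genes were not counted for the settings on FDR, on nearness to IgG peaks and on distance from a start. Over the promoter windows it was 1, Clock in place of Bhlhe40. Bhlhe40 has no window, and its peak, 680 bp from the gene body, lay farther from the annotated start than a window reaches. The authors annotated that peak to a promoter, so their promoter class extends beyond these windows. The number with an IgG peak was 2 (Arntl and Hlf), also at an FDR of 0.01 or less, within 50 kb of a start and within 100 kb. It was 1 with gene bodies and 0 over promoter windows. A RORE was found in the windows of 1 gene and the hexamer alone in those of 3. The promoter windows and the list of all ChIP peaks were chosen after seeing the data. No library could be left out, and no paired analysis was possible because the lists give no value per library.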

Other observations

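The case of Clock, a promoter peak listed under a neighbour, was counted over all protein-coding genes with a RefSeq promoter window. Of the 324 genes with a ChIP-specific peak over a window, 24 (7.41%) were assigned no ChIP-specific peak in the authors' table, and of the 422 with an IgG peak over a window, 30 (7.11%) were assigned no IgG peak. Counted by peaks, 22 of 324 ChIP-specific peaks over a window carried another name. In 13 cases that name was not a symbol of a protein-coding gene in the annotation, as Gm7467 is not. A name that could not be matched to the annotation counts as another name in all of these counts.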
